A study of Homo sapiens with 30 samples.

Results

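The aminoacyl-tRNA synthetases are the enzymes that load each amino acid onto its tRNA, and 35 of their genes were followed here in neuroblastoma cells. The cells had been transfected with antisense oligonucleotides (ASOs) directed at NESPR, a long non-coding RNA. The genes were chosen by name, as genes of synthetases, by a rule that uses no expression value, although earlier results of these data were known when the list was drawn up. They comprise 19 genes for cytosolic enzymes and 16 for mitochondrial ones. All 35 were found by Ensembl gene ID among the 62710 genes of the IMR32 table and the 57905 genes of the NGP and SK-N-BE(2)c tables, and all 35 passed the filter on low values in each. The series holds RNA sequencing of 30 libraries of 3 established neuroblastoma lines, each given 100 nM of ASO by lipofection. The series names 3 ASOs against NESPR (ASO1, ASO2 and ASO10) and 1 negative control ASO, here NCA. IMR32 had 4 libraries each of ASO1, ASO2 and NCA. NGP and SK-N-BE(2)c had 3 libraries each of ASO2, ASO10 and NCA. Every group was thus transfected and carried an ASO. The labels number the libraries within a group without saying whether the cultures were separate, so p-values measure only the spread between these libraries, which may be technical. The time between transfection and harvest is not given in the sources used here. NESPR was not analysed under its own name, so its knockdown is not reported here.

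As background, each synthetase recognises 1 amino acid and the tRNAs that belong to it, and protein synthesis in the cytosol and in mitochondria needs a set of charged tRNAs of its own. Most amino acids have a separate nuclear gene for each compartment, by convention with the suffix 1 for the cytosolic and 2 for the mitochondrial enzyme. GARS1 and KARS1 encode the enzyme of both compartments, and QARS1 was counted with the cytosolic genes. Several cytosolic enzymes are bound together in the multisynthetase complex. When amino acids run short or the endoplasmic reticulum is stressed, translation of the transcription factor ATF4 rises, and ATF4 with its partners binds a composite response element before many cytosolic synthetase genes and genes of amino acid synthesis and transport.

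That element was searched for as TGATGNAA on both strands, so that its other reading is TTNCATCA, in the RefSeq promoter windows of GRCh38.p14 (250 bases before to 50 after a gene's start, 300 bases in all). It was found in 1270 of 35116 windows of all genes (3.62%), or 1217 of 27305 genes (4.46%). Of the 35 synthetase genes 30 had a window. The element was in 7 of the 16 cytosolic genes with a window (43.8%) and in 1 of the 14 mitochondrial ones (7.14%). LARS1, VARS1, YARS1, AARS2 and VARS2 had none. The 8 matches are shown because the 7 cytosolic genes that hold one all rose with ASO10, and YARS2 is the mitochondrial gene with a match. Each line gives the gene's own strand from 5′ to 3′, with the match in capitals and 10 bases on either side.
AARS1, chr16:70289676-70289703, - strand: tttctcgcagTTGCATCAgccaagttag
CARS1, chr11:3057408-3057435, - strand: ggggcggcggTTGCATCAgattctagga
GARS1, chr7:30594835-30594862, + strand: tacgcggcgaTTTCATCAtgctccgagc
IARS1, chr9:92293693-92293720, - strand: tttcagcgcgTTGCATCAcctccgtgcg
MARS1, chr12:57488054-57488081, + strand: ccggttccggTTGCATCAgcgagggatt
NARS1, chr18:57621805-57621832, - strand: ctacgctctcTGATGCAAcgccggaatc
TARS1, chr5:33440957-33440984, + strand: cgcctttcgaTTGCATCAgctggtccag
YARS2, chr12:32756077-32756104, - strand: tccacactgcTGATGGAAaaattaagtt
The matches of CARS1, MARS1 and IARS1 began 2, 4 and 13 bases before the annotated start, that of GARS1 33 bases before it, and those of AARS1 and YARS2 187 and 197 bases before it. Those of TARS1 and NARS1 began 2 and 14 bases after the start. The 7 cytosolic matches all read TTGCATCA, or TGATGCAA on the other strand, apart from TTTCATCA in GARS1, and YARS2 held TGATGGAA. A match is a run of letters and was not tested as a binding site.

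Reads recovered from the values ran from 9393587 to 13932379 per library in IMR32, from 11497829 to 15060356 in SK-N-BE(2)c and from 11591178 to 13795561 in NGP. All 6 markers of adrenergic neuroblastoma cells examined (such as TH and DBH, enzymes of catecholamine synthesis) were expressed in every line, with summed normalized counts of 12877 to 28228 per library, against sums of at most 87.2 for 4 Schwann cell, 79.4 for 3 endothelial and 56.2 for 3 leukocyte markers. Of those 6 markers ASO10 lowered 5 in SK-N-BE(2)c and 6 in NGP, ASO2 lowered 4 and raised 1 in NGP and lowered 3 and raised 3 in SK-N-BE(2)c, and in IMR32 ASO1 lowered 3 and ASO2 lowered 2. The 5 mesenchymal markers examined summed to 568 to 3307 per library. Of these, TWIST1 fell in 5 of the 6 contrasts, COL1A1 rose with ASO2 in every line (by 1.08 in SK-N-BE(2)c, with overlap, 0.50 in NGP and 0.38 in IMR32), and FN1 fell in NGP with both ASOs (-0.34 and -0.74). The leukocyte marker CD14 rose in NGP (1.25 with ASO2 and 0.95 with ASO10, the latter with overlap) and, for ASO2, also SK-N-BE(2)c (0.69). Its counts were low, since the 3 leukocyte markers together summed to 6.15 to 28.9 per library in NGP. No Schwann cell or endothelial marker was called. The part of these marker changes in the results was not tested, and in bulk RNA fewer cells of a kind and less RNA per cell cannot be told apart. In IMR32 the libraries numbered 1 stood apart: they had the highest cytosolic synthetase share of their group in all 3 groups, at 0.513% of all normalized counts with NCA, 0.483% with ASO1 and 0.458% with ASO2, where the other libraries lay at 0.411% to 0.475%. Counts over gene groups in IMR32 are therefore also given from the libraries numbered 2 to 4 alone, an alternative chosen after seeing the data. In the other lines the column name of NCA replicate 1 is spelled differently from those of replicates 2 and 3, and the titles place all 3 in 1 control group.

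Levels were compared between the genes in the NCA libraries as normalized counts per kb of exon. Cytosolic synthetase genes were the more abundant, with medians over genes of 414 per kb in IMR32, 654 in SK-N-BE(2)c and 535 in NGP, against 94.8, 135 and 144 per kb for the mitochondrial genes. SARS1, GARS1 and EPRS1, for serine, glycine and glutamate with proline, led in IMR32 and in SK-N-BE(2)c at 1182 to 1727 per kb, and EPRS1, GARS1 and KARS1 in NGP at 811 to 1012. Lowest were mitochondrial genes: FARS2 in NGP (25.4 ± 3.72, SD, n = 3) and SK-N-BE(2)c (23.6 ± 4.30), and VARS2 (1.73 ± 0.154, n = 4) and SARS2 (10.3 ± 2.65) in IMR32. VARS2 and SARS2 overlap other genes on the same strand (GTF2H4 and AC011455.2), and how such reads were counted is not given. Each table carries its own scaling, and no level is compared here between cell lines.

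Both compartments changed in all lines, and with ASO10 the cytosolic genes rose more often than they fell. A gene was called when its Benjamini-Hochberg adjusted p in limma, over all genes tested in the line, was under 0.05. Fold changes are log2 differences of normalized count + 1, a scale that understates the change of low genes. In NGP, ASO2 changed 30 of the 35 genes (17 higher, 13 lower), where 58.7% of the 14440 genes tested were called (30.6% higher and 28.1% lower). ASO10 changed 24 in NGP (16 higher, 8 lower), against 54.4% of all genes (26.8% and 27.6%). In SK-N-BE(2)c both ASO2 (14 higher, 12 lower) and ASO10 (16 higher, 10 lower) changed 26, against 67.0% of 13556 genes for ASO2 (33.6% and 33.4%) and 58.9% for ASO10 (27.8% and 31.1%). Each ASO changed 15 genes in IMR32, 7 higher and 8 lower. There 28.0% of the 17309 genes tested were called with ASO1 (13.6% higher, 14.4% lower) and 32.4% with ASO2 (17.6% higher, 14.8% lower). With every library set to the same total, the split became 12 higher and 13 lower for ASO2 in NGP, 11 and 15 for ASO2 in SK-N-BE(2)c and 11 and 8 for ASO1 in IMR32. Over all genes that scaling gave, in the same order, 3664 higher and 4694 lower, 3503 and 5622, and 2788 and 2266. From the IMR32 libraries numbered 2 to 4 20 genes were called with ASO1 (9 higher, 11 lower), where 2745 of 17393 genes were higher and 2984 lower. With ASO2 19 were called from those libraries (10 higher, 9 lower), where 3560 genes were higher and 3071 lower. The 2 ASO contrasts of a line share their control libraries. FARSB and FARS2, lower, and TARS2, higher, were the genes called with 1 sign in all 6 contrasts against NCA.

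**Figure D1:**
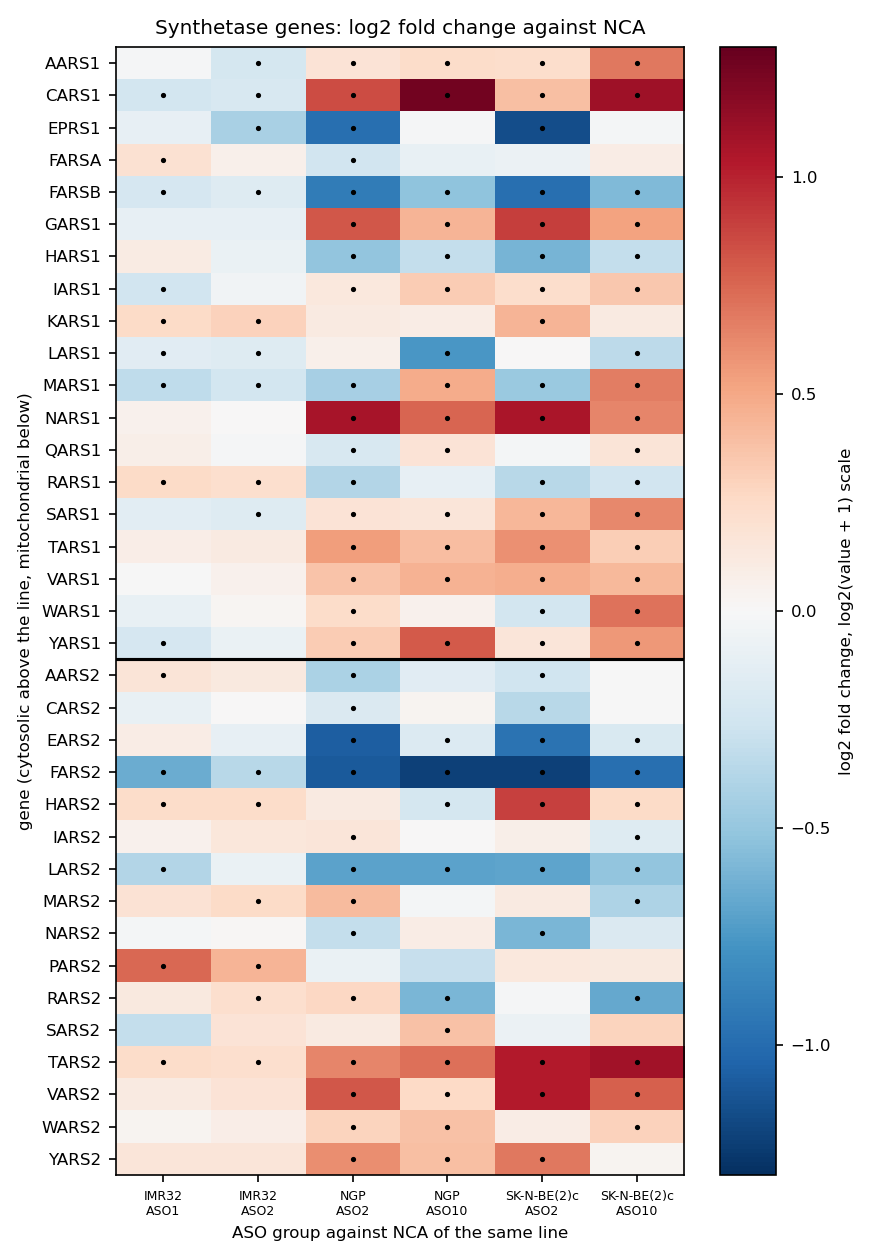
Log2 fold change of each synthetase gene (rows) in each ASO group against NCA of the same line (columns), coloured from lower (blue) to higher (red) on the log2(value + 1) scale, with a dot where the gene was called. FARSB and FARS2 are blue and TARS2 is red with a dot in all 6 columns, EPRS1 and EARS2 are dark blue with ASO2 in NGP and SK-N-BE(2)c, and the IMR32 columns are pale.

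By compartment, the cytosolic genes had higher medians than the mitochondrial ones with ASO10. In SK-N-BE(2)c 12 of the 19 cytosolic genes rose and 4 fell, and in NGP 11 rose and 3 fell, with median log2 fold changes of 0.35 and 0.18. The 16 mitochondrial genes gave 4 higher and 6 lower in SK-N-BE(2)c and 5 and 5 in NGP, with medians of -0.004 and -0.01. The median of all genes tested was -0.03 in each. With ASO2 the cytosolic split was 10 higher and 7 lower in NGP (median 0.13) and 10 and 6 in SK-N-BE(2)c (0.16), beside 7 and 6 mitochondrial genes in NGP (0.12) and 4 and 6 in SK-N-BE(2)c (0.03), where the median of all genes was 0.01 and -0.02. These ASO2 directions depended on the scaling: with every library set to the same total, which put the median of all genes at -0.15 in SK-N-BE(2)c and -0.06 in NGP, the cytosolic split became 7 higher and 9 lower in SK-N-BE(2)c and 7 and 7 in NGP, and the mitochondrial median in SK-N-BE(2)c turned to -0.11. Under that scaling the ASO10 cytosolic splits were 10 and 3 in NGP and 12 and 4 in SK-N-BE(2)c. In IMR32 the order was the other way round, with cytosolic medians of -0.09 for both ASOs (3 higher and 6 lower for ASO1, 2 and 7 for ASO2) and mitochondrial medians of 0.11 (4 and 2) and 0.15 (5 and 1). With IMR32 libraries at the same total, 7 mitochondrial genes were higher and 2 lower for ASO1. From the libraries numbered 2 to 4 ASO1 gave 4 higher and 9 lower cytosolic and 5 and 2 mitochondrial genes, and ASO2 gave 3 and 8 and 7 and 1. No test of the difference between compartments was made, since the genes of a library are not replicates.

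As a share of all normalized counts, the 19 cytosolic genes together took 0.455% ± 0.0101 (SD, n = 3) with NCA in NGP, 0.469% ± 0.00768 with ASO2 and 0.540% ± 0.00379 with ASO10. SK-N-BE(2)c had 0.558% ± 0.0114, 0.568% ± 0.0122 and 0.709% ± 0.0269 in the same order. In both lines the ASO10 libraries were all above those of the other groups, while those of ASO2 and NCA overlapped. In IMR32 the share was 0.482% ± 0.0207 with NCA, 0.457% ± 0.0184 with ASO1 and 0.436% ± 0.0191 with ASO2 (n = 4), where ASO2 lay below NCA and ASO1 overlapped both. The 16 mitochondrial genes took 0.0829% ± 0.00148 with NCA in IMR32 (0.0815% to 0.0849%), and all libraries of ASO1 (0.0856% to 0.0884%) and of ASO2 (0.0856% to 0.0883%) lay above those of NCA. In the other lines their share was 0.0737% to 0.0772% (NGP) and 0.0872% to 0.0907% (SK-N-BE(2)c), and each ASO group overlapped NCA.

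**Figure D2:**
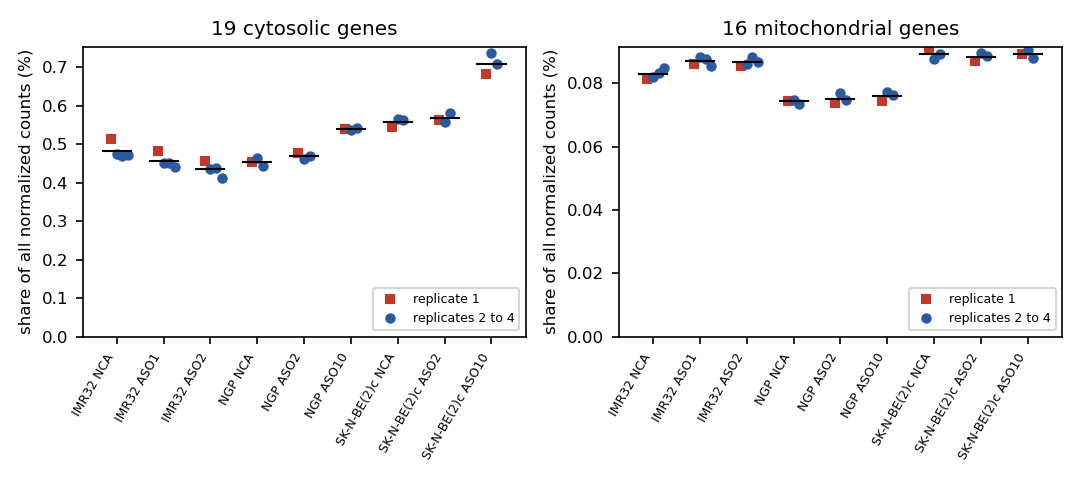
Share of all normalized counts (%, y axis) held by the 19 cytosolic genes (left) and the 16 mitochondrial genes (right) in each library, by group (x axis), with replicate 1 as a square, the other replicates as circles and a line at the group mean. For the cytosolic genes the ASO10 libraries lie above those of NCA in NGP and SK-N-BE(2)c, and in IMR32 the square is the highest of each group. The square is not the highest of any IMR32 group for the mitochondrial genes.

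The cytosolic genes with the response element rose with ASO10 in both lines that had it. All 7 (AARS1, CARS1, GARS1, IARS1, MARS1, NARS1 and TARS1) were higher with ASO10 in NGP, with a median of 0.44, and in SK-N-BE(2)c, with a median of 0.63. With ASO2, 6 of the 7 rose and MARS1 fell in both NGP (median 0.54) and SK-N-BE(2)c (0.39); with libraries at the same total AARS1 and IARS1 lost their call in each line, leaving 4 higher and 1 lower. Of the 9 cytosolic genes whose window lacked the element, 2 rose and 2 fell with ASO10 and 2 rose and 6 fell with ASO2 in NGP (1 and 2, and 1 and 6, at the same total). SK-N-BE(2)c had 3 higher and 3 lower with ASO10 and 2 and 5 with ASO2 (3 and 3, and 2 and 7, at the same total). The cytosolic genes without a window, LARS1, VARS1 and YARS1, are in neither set. VARS1 and YARS1 rose with both ASOs in both lines, though YARS1 lost its ASO2 call in SK-N-BE(2)c at the same total. LARS1 fell with ASO10 in both lines and was not called with ASO2. In IMR32 none of the 7 rose and 3 fell with each ASO (medians -0.11 for both), while of the 9 without the element 3 rose and 1 fell with ASO1 and 2 rose and 3 fell with ASO2. From the IMR32 libraries numbered 2 to 4, 4 of the 7 fell with each ASO and 1 rose with ASO2, while of the 9 without the element 4 rose and 3 fell with ASO1 and 2 rose and 3 fell with ASO2. The mitochondrial gene with a match, YARS2, rose with ASO2 in both lines and with ASO10 in NGP. For comparison, 26.8% to 33.6% of all genes tested were called higher and 27.6% to 33.4% lower against NCA in these lines. The shares in IMR32 were 13.6% to 17.6% higher and 14.4% to 14.8% lower.

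**Figure D3:**
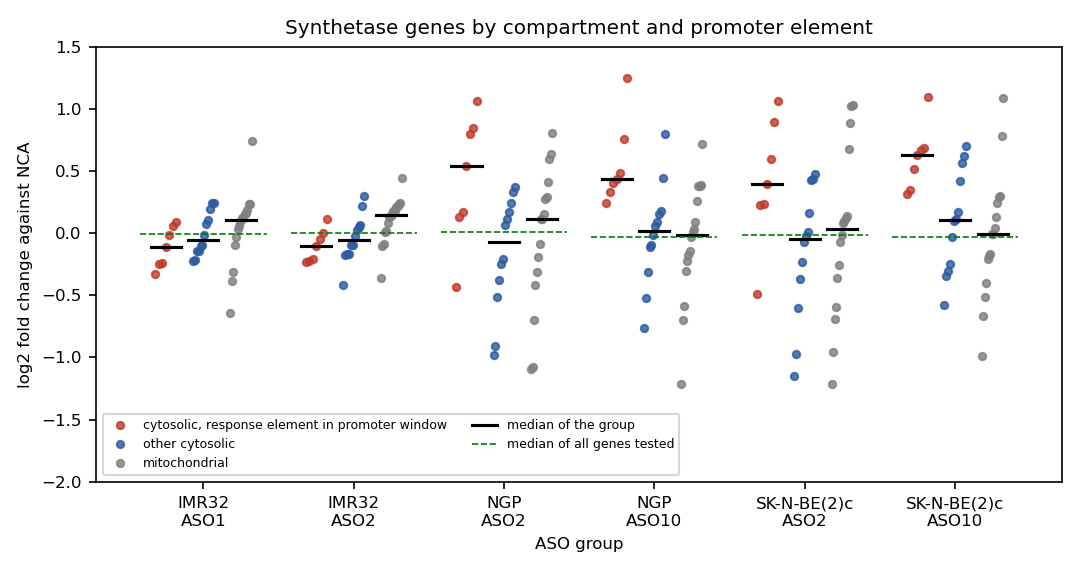
Log2 fold change against NCA (y axis) of every synthetase gene in each ASO group (x axis), split into the 7 cytosolic genes with the response element in their promoter window (red), the other 12 cytosolic genes, 3 of which have no window (blue), and the 16 mitochondrial genes (grey), with a black bar at each median and a dashed line at the median of all genes tested. With ASO10 the red points are all above 0. With ASO2 in NGP and SK-N-BE(2)c 1 red point, MARS1, lies below 0, and AARS1 and IARS1 are no longer called when libraries are set to the same total. In IMR32 the red median is -0.11 with each ASO.

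CARS1, the cysteinyl-tRNA synthetase, was among the genes that rose most. In NGP its normalized counts were 919.6, 914 and 871 with NCA, 1630.2, 1540.3 and 1703 with ASO2 and 2168, 2144 and 2136 with ASO10. The 3 groups did not overlap, with ASO10 highest. The log2 fold changes were 0.85 ± 0.06 (adjusted p 7.81e-12) for ASO2 and 1.25 ± 0.06 (adjusted p 6.11e-15) for ASO10, each with its standard error. In SK-N-BE(2)c CARS1 kept that order of groups, at 841 ± 26.8 (SD, n = 3) with NCA, 1105 ± 48 with ASO2 and 1805 ± 171 with ASO10. The rise with ASO2 was smaller there than in NGP, a difference of -0.46 on the log2 scale (adjusted p 0.000826, limma on both lines together). In IMR32 CARS1 fell, by 0.24 with ASO1 and 0.21 with ASO2.

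NARS1, which charges tRNA with asparagine, was higher with both ASOs in NGP, at 2021, 1934 and 2420.3 with NCA, 4541, 4279 and 4485 with ASO2 and 3798, 3301 and 3659 with ASO10. All ASO libraries lay above the NCA libraries and those of ASO2 above those of ASO10. The log2 fold change was 1.07 ± 0.07 (adjusted p 1.64e-12) with ASO2 and 0.76 ± 0.07 (adjusted p 6.89e-10) with ASO10. SK-N-BE(2)c gave nearly the same ASO2 value, 1.07 ± 0.06 (adjusted p 6.31e-15), and 0.63 with ASO10. In IMR32 it was not called, at 0.06 and 0.01.

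GARS1, which supplies the glycyl enzyme to both compartments, rose in NGP and SK-N-BE(2)c. In NGP it had 3889.7, 4107 and 3809 with NCA, 7193, 6387 and 7030.5 with ASO2 and 5501, 5304 and 5219 with ASO10, and in SK-N-BE(2)c 5063, 5487 and 5653 with NCA, 10085, 9286 and 10794 with ASO2 and 7529, 8089.9 and 7594 with ASO10. In both lines the 3 groups were separate, with ASO2 above ASO10 and ASO10 above NCA. The log2 fold changes were 0.80 ± 0.05 (adjusted p 1.99e-12) and 0.44 ± 0.05 (adjusted p 7.18e-08) in NGP for ASO2 and ASO10, and 0.90 ± 0.06 (adjusted p 5.8e-14) and 0.52 ± 0.06 (adjusted p 5.5e-09) in SK-N-BE(2)c. In IMR32 its values were 6136, 5249, 4905 and 5024 with NCA, 5593, 4761, 4736 and 4623 with ASO1 and 5662, 4864, 4967 and 4334 with ASO2, the groups overlapped and GARS1 was not called, although it was called lower with both ASOs (-0.10 each) from the libraries numbered 2 to 4. The threonyl gene TARS1 followed the same order, at 0.54 and 0.41 in NGP and 0.59 and 0.32 in SK-N-BE(2)c.

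KARS1, the lysyl enzyme of both compartments and a member of the multisynthetase complex, was called with ASO2 in SK-N-BE(2)c and with both ASOs in IMR32. Its counts in SK-N-BE(2)c were 2946, 3101 and 3220.0 with NCA, 4098, 4159.8 and 4306 with ASO2 and 3246, 3366 and 3413 with ASO10, with the ASO2 libraries above all others and a log2 fold change of 0.44 ± 0.05 (adjusted p 1.85e-08). With ASO10 KARS1 was at 0.11 ± 0.05 (adjusted p 0.0592) by limma, while edgeR and DESeq2 on recovered reads called it higher. In NGP it had 3333, 3402 and 3153 with NCA, 3711, 3577 and 3408 with ASO2 and 3506, 3522 and 3518 with ASO10, all ASO libraries lay above NCA, and neither change was called (0.11 and 0.09). The ASO2 effect was larger in SK-N-BE(2)c than in NGP by 0.33 (adjusted p 0.00141). In IMR32 the values were 892, 782, 788 and 774 with NCA, 1102, 936, 844 and 964 with ASO1 and 1077, 992, 945 and 962 with ASO2, and the log2 fold changes 0.24 ± 0.07 (adjusted p 0.0117) for ASO1 and 0.30 ± 0.07 (adjusted p 0.00275) for ASO2, where ASO1 overlapped NCA and ASO2 did not. The gene span of KARS1 overlaps TERF2IP on the opposite strand. The sources used here do not say whether counting used strand, so reads of such a pair cannot be told apart.

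Of the 19 cytosolic genes, 12 are commonly described as ATF4 targets, among them the 7 with the response element. Of the 12, 9 rose and 2 fell with ASO2 in NGP (median 0.21), and 9 rose and 1 fell with ASO10 (0.37). For SK-N-BE(2)c 8 rose and 3 fell with ASO2 (median 0.23), and 10 rose and 1 fell with ASO10 (0.59); at the same total the ASO2 counts were 6 and 2 in NGP and 5 and 4 in SK-N-BE(2)c. In IMR32 none rose, and 5 fell with ASO1 and 6 with ASO2 (medians -0.13 for both). From the libraries numbered 2 to 4, 8 fell with ASO1, and 7 fell and 1 rose with ASO2. The other 7 cytosolic genes (FARSA, FARSB, HARS1, KARS1, QARS1, RARS1 and VARS1) had 1 higher and 5 lower with ASO2 in NGP, and 2 and 2 with ASO10. Their counts in SK-N-BE(2)c were 2 and 3 for each ASO, and 2 and 5 for ASO2 at the same total. Over all genes tested, 26.8% to 33.6% were higher and 27.6% to 33.4% lower in NGP and SK-N-BE(2)c. In IMR32 it was 13.6% to 17.6% and 14.4% to 14.8%. The list of 12 was written with earlier results of these data known and is no independent evidence of direction.

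Of 14 genes of the ATF4 branch, 13 rose with ASO2 and 14 with ASO10 in both NGP (medians 0.93 and 0.79) and SK-N-BE(2)c (0.73 and 0.84), with none lower; at the same total 11 were higher and 1 lower with ASO2 in SK-N-BE(2)c. ATF5, a transcription factor of this branch, was at 2147 ± 323 (SD, n = 3) with NCA, 5195 ± 374 with ASO2 and 5063 ± 598 with ASO10 in SK-N-BE(2)c, log2 fold changes of 1.28 and 1.24, and it was called higher with both in NGP. SESN2, a sensor of leucine that restrains mTORC1, rose by 1.44 and 1.02 in NGP and by 0.95 and 0.98 in SK-N-BE(2)c. In IMR32, 5 branch genes rose and 4 fell with each ASO (7 and 4 with ASO1 and 6 and 4 with ASO2 from the libraries numbered 2 to 4). There ATF3, a stress-induced transcription factor, rose by 0.77 and 0.73, from 405 ± 58.9 (n = 4) to 685 ± 22.4 and 669 ± 67.6, while ATF5 fell by 0.31 and 0.42. Of all genes tested, 26.8% to 33.6% were called higher against NCA in NGP and SK-N-BE(2)c and 13.6% to 17.6% in IMR32. The branch and the synthetase genes were measured in the same libraries, and a link between them was not tested.

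The multisynthetase complex did not move as 1 block. EPRS1, a single protein that charges glutamate and proline, fell with ASO2 in all 3 lines. In NGP its counts were 5539, 5489 and 5511 with NCA, 2799.9, 2919.6 and 2664 with ASO2 and 5393, 5282 and 5741 with ASO10. SK-N-BE(2)c libraries held 6055, 6448 and 6817 with NCA, 2691, 2974 and 3051 with ASO2 and 6014, 6494 and 6441 with ASO10. The ASO2 libraries lay far below all others in both lines, and those of ASO10 overlapped NCA. The log2 fold change with ASO2 was -0.98 ± 0.05 (adjusted p 4.12e-14) in NGP and -1.15 ± 0.06 (adjusted p 5.01e-16) in SK-N-BE(2)c, beside -0.01 ± 0.05 (adjusted p 0.859) and -0.03 ± 0.06 (adjusted p 0.699) with ASO10. The ASOs differed from each other by -0.97 ± 0.05 (adjusted p 2.24e-14) and -1.12 ± 0.06 (adjusted p 5.45e-16). In IMR32 EPRS1 was also lower with ASO2, at 7419.8, 6733, 6449 and 6372 with NCA, 7278, 5955, 5844 and 6059.5 with ASO1 and 6091, 4913, 4648 and 4601 with ASO2. ASO2 and NCA did not overlap there, and the log2 fold change was -0.42 ± 0.08 (adjusted p 0.000483), against -0.10 ± 0.08 (adjusted p 0.358) with ASO1.

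MARS1, the methionyl enzyme of the complex, went in opposite directions with the 2 ASOs. In NGP it was at 5633, 5942 and 5331 with NCA, 4190.5, 4158 and 4196 with ASO2 and 7892, 8028 and 7689 with ASO10, and in SK-N-BE(2)c at 6302, 6624 and 6363 with NCA, 4671, 4508 and 4602 with ASO2 and 9650.3, 10956 and 10110.4 with ASO10. The 3 groups were separate in both lines, with ASO2 below and ASO10 above NCA. It fell with ASO2 by 0.43 in NGP (adjusted p 2.9e-08) and 0.48 in SK-N-BE(2)c (adjusted p 2.14e-09) and rose with ASO10 by 0.48 (adjusted p 4.41e-09) and 0.67 (adjusted p 6.67e-12), a difference between the ASOs of -0.91 ± 0.05 (adjusted p 2.95e-14) and -1.15 ± 0.05 (adjusted p 3.75e-17). In IMR32 MARS1 fell with both, at 3610.2, 3333, 3412 and 3294 with NCA, 2851, 2698, 2669 and 2628 with ASO1 and 2999.7, 2930.3, 3016 and 2657 with ASO2. All ASO libraries of IMR32 were below the NCA libraries, and the log2 fold changes were -0.33 ± 0.05 (adjusted p 3.46e-05) and -0.24 ± 0.05 (adjusted p 0.00108). MARS1 overlaps DDIT3, a stress-induced transcription factor gene, and ARHGAP9, both on the opposite strand. DDIT3 rose by 0.56 and 0.80 with ASO10 in NGP and then SK-N-BE(2)c, and by 0.98 and 1.00 in IMR32. Its own ASO2 values in NGP and SK-N-BE(2)c are not given here. Of the 14 ATF4 branch genes, DDIT3 among them, 13 were called higher and none lower with ASO2 in each of these lines. The share of DDIT3 in the MARS1 counts was not tested.

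LARS1, the leucyl enzyme of the complex, fell with ASO10 and was not called with ASO2 in the lines given both. NGP had 3994, 4200.3 and 4348 with NCA, 4383, 4407 and 4375 with ASO2 and 2451, 2378 and 2582 with ASO10, so that all ASO10 libraries were far below the rest while the ASO2 libraries lay just above NCA. The log2 fold change was -0.76 ± 0.05 (adjusted p 4.3e-12) with ASO10 and 0.07 ± 0.05 (adjusted p 0.237) with ASO2. In SK-N-BE(2)c LARS1 fell by 0.34 with ASO10 (adjusted p 4.13e-06); with ASO2 it was at 0.01, not called, and at -0.13 (adjusted p 0.0335) with libraries at the same total. IARS1, for isoleucine, was higher with both ASOs in these lines (0.23 and 0.35 in SK-N-BE(2)c, 0.13 and 0.33 in NGP, where the ASO2 call was lost under 3 alternatives). In IMR32 it had 7322, 6625, 6445 and 6566 with NCA, 6149, 5718, 5494 and 5379.5 with ASO1 and 6748, 6524, 6579.7 and 6274 with ASO2. The ASO1 libraries of IMR32 were all below those of the other groups, and IARS1 fell by 0.25 with ASO1 and differed between the ASOs by -0.20 ± 0.05 (adjusted p 0.00698).

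For the remaining genes of the complex, RARS1 (arginine) fell with ASO2 in NGP and with both ASOs in SK-N-BE(2)c (-0.38, -0.36 and -0.25) and rose in IMR32 (0.24 and 0.22). QARS1 (glutamine) fell by 0.20 with ASO2 in NGP and rose by 0.18 and 0.17 with ASO10 in NGP and then SK-N-BE(2)c. Over the 7 enzymes of the complex, 1 was higher and 4 were lower with ASO2 in NGP, 3 and 1 with ASO10 in NGP, 2 and 3 with ASO2 and 3 and 2 with ASO10 in SK-N-BE(2)c, and 2 and 3 with each ASO in IMR32 (2 and 4 with ASO1 from the libraries numbered 2 to 4, and again 2 and 3 with ASO2). With libraries at the same total the ASO2 counts were 0 and 4 in NGP and 1 and 5 in SK-N-BE(2)c. Without that rescaling, 54.4% to 67.0% of all genes were called in NGP and SK-N-BE(2)c and 28.0% to 32.4% in IMR32.

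**Figure D4:**
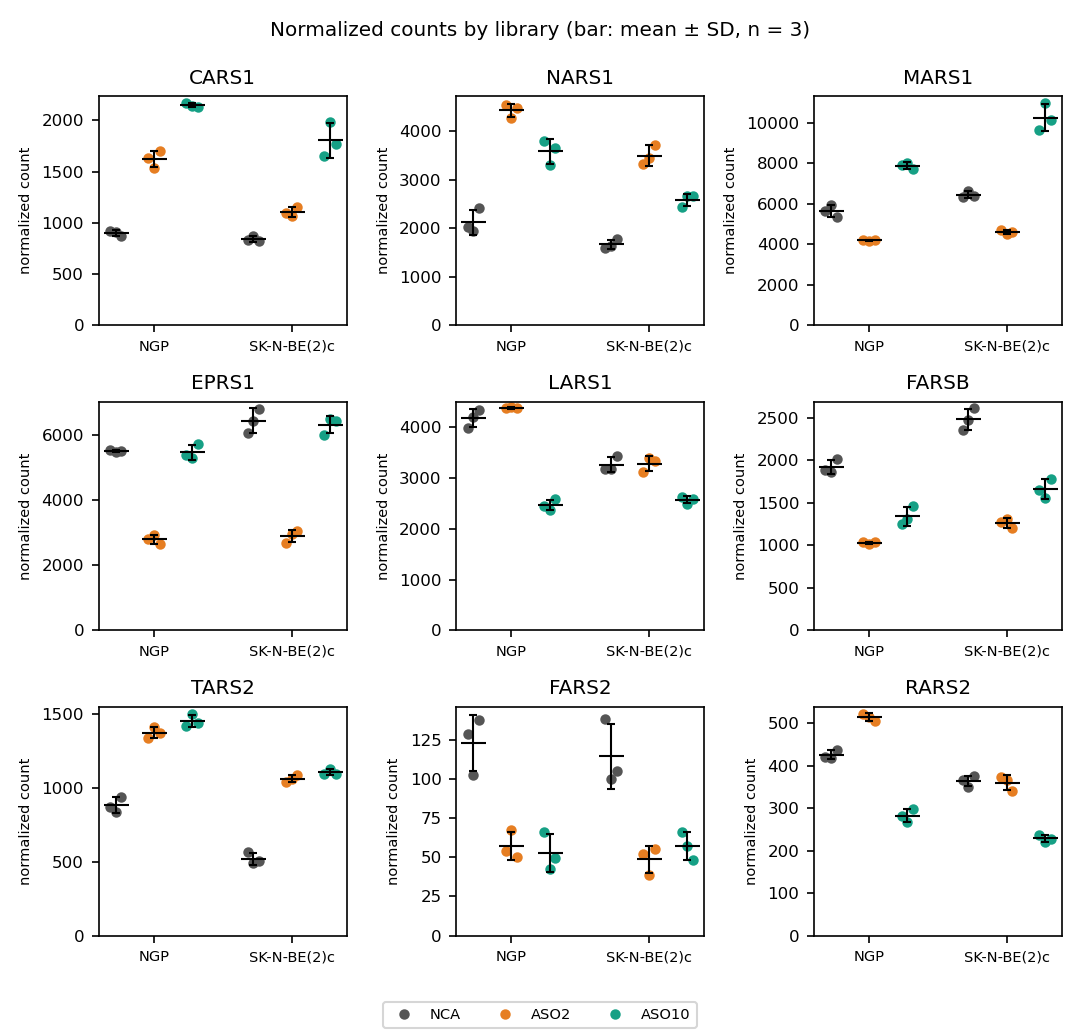
Normalized counts (y axes, from 0) of 9 synthetase genes in each library of NGP and SK-N-BE(2)c (x axes), coloured by ASO, with the mean ± SD of 3 libraries. EPRS1 is low with ASO2 alone, LARS1 and RARS2 are low with ASO10, MARS1 is below NCA with ASO2 and above it with ASO10, FARSB and FARS2 are low and TARS2 is high with both.

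Phenylalanyl-tRNA synthetase is built in the cytosol from 2 kinds of subunit, FARSA and FARSB, and in mitochondria from the single chain of FARS2. FARSB fell in all 6 contrasts while FARSA moved little. In NGP FARSB was at 1887, 1864 and 2020.3 with NCA, 1036, 1010.1 and 1034 with ASO2 and 1250.3, 1309.5 and 1466 with ASO10. SK-N-BE(2)c had 2362, 2477 and 2609.9 with NCA, 1269.6, 1314 and 1203 with ASO2 and 1654, 1553 and 1784 with ASO10. The 3 groups were separate in each of these lines, with ASO2 lowest and NCA highest. The log2 fold changes were -0.90 ± 0.06 (adjusted p 1.22e-11) and -0.52 ± 0.06 (adjusted p 1.83e-07) in NGP for ASO2 and ASO10, and -0.98 ± 0.06 (adjusted p 9.98e-14) and -0.58 ± 0.06 (adjusted p 6.01e-09) in SK-N-BE(2)c. In IMR32 the values were 1404, 1299, 1228 and 1354 with NCA, 1208, 1076, 1067 and 1189 with ASO1 and 1310.4, 1128, 1099 and 1169 with ASO2, with changes of -0.22 ± 0.06 (adjusted p 0.0102) and -0.17 ± 0.06 (adjusted p 0.04). There ASO1 was below every NCA library and ASO2 overlapped NCA, and the ASO2 call was lost under 7 alternatives. FARSA fell by 0.25 with ASO2 in NGP (adjusted p 0.00127), rose by 0.20 with ASO1 in IMR32 (adjusted p 0.00865) and was not called in the other 4 contrasts.

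FARS2, the mitochondrial counterpart, was one of the lowest genes and fell in every contrast. NGP had 128, 103 and 137 with NCA, 53.8, 67.1 and 50.1 with ASO2 and 66.2, 42.8 and 49.3 with ASO10, and SK-N-BE(2)c 138, 99.8 and 105 with NCA, 51.9, 39 and 55.2 with ASO2 and 66, 57.3 and 48.2 with ASO10. Every ASO library was below every NCA library in these lines, and the ASOs overlapped each other. FARS2 changed by -1.09 ± 0.19 (adjusted p 2.06e-05) and -1.22 ± 0.19 (adjusted p 5.81e-06) in NGP and by -1.22 ± 0.19 (adjusted p 2.5e-06) and -0.98 ± 0.19 (adjusted p 6.83e-05) in SK-N-BE(2)c. In IMR32 it was at 185, 181, 187 and 164 with NCA, 92.2, 137, 128 and 105 with ASO1 and 118, 133, 154 and 157 with ASO2, below NCA in every ASO library, with -0.64 ± 0.12 (adjusted p 0.000334) and -0.36 ± 0.12 (adjusted p 0.0238); the ASO2 call was lost when any of 4 libraries was left out. FARS2 spans 568.1 kb, the longest of the 35 genes. The next longest, LARS2 (160.9 kb) and NARS2 (138.9 kb), also fell where they were called, while WARS2 (109.5 kb) rose where it was called.

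Among the other mitochondrial genes, TARS2 (threonine) rose in all 6 contrasts. Its counts were 566, 489 and 505 with NCA, 1042, 1062 and 1088 with ASO2 and 1096, 1131 and 1094 with ASO10 in SK-N-BE(2)c, and 873, 840.1 and 942 with NCA, 1338, 1416 and 1372 with ASO2 and 1419, 1498 and 1443 with ASO10 in NGP. All ASO libraries were above all NCA libraries in both lines, with log2 fold changes of 1.03 ± 0.07 (adjusted p 2.37e-13) and 1.09 ± 0.07 (adjusted p 1.71e-13) in SK-N-BE(2)c and 0.64 ± 0.06 (adjusted p 3.74e-09) and 0.72 ± 0.06 (adjusted p 5.02e-10) in NGP. In IMR32 TARS2 was at 842, 825, 818 and 884 with NCA, 984, 978, 1010.4 and 992 with ASO1 and 963, 967, 994 and 998 with ASO2, again without overlap, and rose by 0.23 (adjusted p 0.000573) and 0.22 (adjusted p 0.00106). With ASO2 the rise was larger in SK-N-BE(2)c than in NGP by 0.40 (adjusted p 0.00221).

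VARS2 (valine) also rose with both ASOs in NGP and SK-N-BE(2)c. Its counts in SK-N-BE(2)c were 609, 684 and 618 with NCA, 1413, 1207 and 1280.1 with ASO2 and 1027, 1182 and 1078 with ASO10, with both ASO groups above NCA and ASO2 above ASO10. The log2 fold changes there were 1.03 ± 0.07 (adjusted p 9.32e-13) and 0.78 ± 0.07 (adjusted p 4.28e-10), beside 0.81 and 0.26 in NGP. VARS2 overlaps GTF2H4 on the same strand. IMR32 libraries held 11.9 to 22.9 normalized counts of VARS2, and no change was called at such low counts. LARS2 (leucine) fell in 5 contrasts, by 0.70 with each ASO in NGP and 0.69 and 0.51 in SK-N-BE(2)c. In IMR32 LARS2 was at 717, 707, 718 and 782 with NCA, 556, 592, 534 and 564 with ASO1 and 673, 714, 691 and 674 with ASO2. There it was low with ASO1 alone, at -0.38 ± 0.05 (adjusted p 1.77e-05) against -0.09 ± 0.05 (adjusted p 0.224) with ASO2, and the ASOs differed by -0.29 ± 0.05 (adjusted p 0.000436).

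RARS2 (arginine) fell with ASO10. It was at 419.7, 419 and 438 with NCA, 523, 515 and 505 with ASO2 and 282, 268 and 298 with ASO10 in NGP and 367, 351 and 375 with NCA, 375, 366 and 341 with ASO2 and 238, 221 and 228 with ASO10 in SK-N-BE(2)c. The ASO10 libraries were the lowest in both lines. In NGP those of ASO2 were the highest, while in SK-N-BE(2)c ASO2 overlapped NCA. The changes with ASO10 were -0.59 ± 0.08 (adjusted p 1.43e-06) and -0.67 ± 0.09 (adjusted p 3.92e-07), and with ASO2 0.27 ± 0.08 (adjusted p 0.00642) and -0.02 ± 0.09 (adjusted p 0.887). PARS2 (proline) was called in IMR32 alone, where its low counts were 60.2, 51.8, 48.3 and 44.1 with NCA, 107, 97.1, 72 and 71.8 with ASO1 and 76.3, 65.9, 71 and 65.1 with ASO2. Both ASO groups were above NCA there, at 0.74 ± 0.14 (adjusted p 0.000499) and 0.44 ± 0.14 (adjusted p 0.0208); the ASO2 call was lost when any of 3 libraries was left out. Whether the IMR32 change differs from those of the other lines was not tested.

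HARS1 and HARS2, the cytosolic and mitochondrial histidyl enzymes, lie head to head, and their counts moved apart in SK-N-BE(2)c. The 84 bases between the 2 RefSeq start sites (GRCh38.p14) are shown because both genes start from them. The run is on the strand of HARS2, and HARS1 is read from its other end. No motif is marked, and 59.5% of the bases are G or C.
HARS2 and HARS1, chr5:140691371-140691454, + strand: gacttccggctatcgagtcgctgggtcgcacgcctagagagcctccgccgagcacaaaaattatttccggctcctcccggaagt
HARS2 had 772, 772 and 784 with NCA, 1399, 1401 and 1521 with ASO2 and 886, 925 and 953 with ASO10 in SK-N-BE(2)c and 631, 665 and 660.5 with NCA, 699, 700.0 and 723 with ASO2 and 583, 580.1 and 514 with ASO10 in NGP. In SK-N-BE(2)c the 3 groups were separate, with ASO2 highest and NCA lowest, and HARS2 rose by 0.89 with ASO2 (adjusted p 1.13e-12) and 0.25 with ASO10 (adjusted p 0.0016). In NGP it was at 0.12 ± 0.07 (adjusted p 0.175) with ASO2 and -0.22 ± 0.07 (adjusted p 0.0125) with ASO10. The ASO2 effect on HARS2 differed between the lines by 0.77 (adjusted p 2.29e-06). HARS1, described here because of its place and after its values were seen, had 1509, 1504 and 1504 with NCA, 968, 1028 and 979 with ASO2 and 1211, 1223 and 1219 with ASO10 in SK-N-BE(2)c. It fell there by 0.60 with ASO2 and 0.31 with ASO10, and in NGP by 0.51 and 0.31, all called. In IMR32 HARS2 rose by 0.24 with each ASO and HARS1 was not called. By their GENCODE 29 spans the pair overlap each other, HARS1 also overlaps WDR55 on the opposite strand and HARS2 overlaps ZMAT2 on its own strand, so reads of these overlaps are uncertain.

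**Figure D5:**
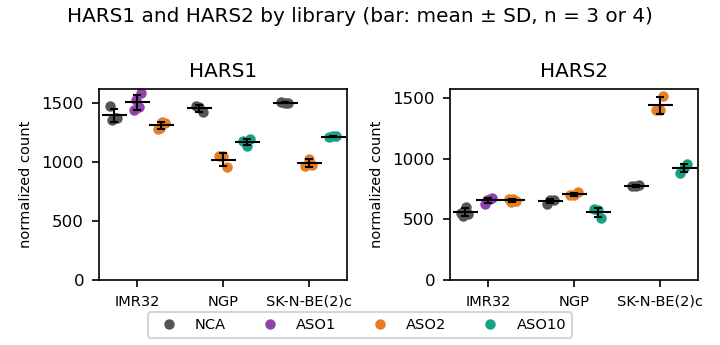
Normalized counts (y axes, from 0) of HARS1 (left) and HARS2 (right) in each library of IMR32, NGP and SK-N-BE(2)c (x axes), coloured by ASO, with the mean ± SD of 4 libraries in IMR32 and 3 in the other lines. In SK-N-BE(2)c HARS1 is lowest and HARS2 highest with ASO2, while in NGP HARS1 is lowest with ASO2 and HARS2 is close to NCA.

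EARS2, the mitochondrial glutamyl enzyme, fell with ASO2 together with genes of the step that follows it; it was singled out after its values were seen. In mitochondria EARS2 also loads glutamate onto the tRNA for glutamine, and a transamidase made of the products of QRSL1, GATB and GATC turns it into glutamine. EARS2 was at 933, 957 and 838 with NCA, 403, 455 and 434 with ASO2 and 783, 784 and 841 with ASO10 in NGP. SK-N-BE(2)c had 1301, 1228 and 1229.8 with NCA, 696, 644 and 594 with ASO2 and 1087, 1082 and 1094 with ASO10. ASO2 libraries were far below all others in both lines. The log2 fold changes with ASO2 were -1.08 ± 0.08 (adjusted p 1.06e-11) and -0.96 ± 0.07 (adjusted p 7.31e-13), against -0.18 ± 0.08 (adjusted p 0.0484) and -0.20 ± 0.07 (adjusted p 0.0112) with ASO10. GATC was at 433 ± 16.8 (SD, n = 3) with NCA, 187 ± 27.9 with ASO2 and 439 ± 18.3 with ASO10 in NGP, and at 559 ± 16, 232 ± 17.3 and 406 ± 12.4 in SK-N-BE(2)c. GATC fell with ASO2 by 1.27 in SK-N-BE(2)c and 1.21 in NGP, and GATB by 1.27 and 1.16. With ASO10 GATC fell by 0.46 in SK-N-BE(2)c and was not called in NGP (0.02), and GATB was not called (-0.17 and 0.01). QRSL1 was not called in any of the 6 contrasts and lay between -0.05 and 0.07. In IMR32 none of the 4 genes was called against NCA. EARS2 overlaps UBFD1 on the opposite strand.

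The mitochondrial genes left are given by log2 fold change, for ASO2 and then ASO10. YARS2 (tyrosine) was at 0.60 and 0.39 in NGP and 0.68 and 0.04 in SK-N-BE(2)c, the last not called. NARS2 (asparagine) was at -0.31 and 0.09 in NGP and -0.60 and -0.18 in SK-N-BE(2)c and was called lower with ASO2. AARS2 (alanine) and CARS2 (cysteine) fell with ASO2 in both lines, AARS2 by 0.41 and 0.25 and CARS2 by 0.19 and 0.36, and neither was called with ASO10. MARS2 (methionine) rose by 0.41 with ASO2 in NGP and by 0.25 with ASO2 in IMR32, and fell by 0.40 with ASO10 in SK-N-BE(2)c. IARS2, SARS2 and WARS2, for isoleucine, serine and tryptophan, were called in 2, 1 and 3 of the 6 contrasts. Their changes lay between -0.31 and 0.38. The call of WARS2 with ASO2 in NGP was lost under 9 alternatives, and that of EARS2 with ASO10 in NGP under 8.

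The cytosolic genes not yet given mostly rose in NGP and SK-N-BE(2)c. YARS1 (tyrosine) was at 0.33 and 0.80 in NGP and 0.16 and 0.57 in SK-N-BE(2)c, VARS1 (valine) at 0.37 and 0.45 in NGP and 0.48 and 0.42 in SK-N-BE(2)c and SARS1 (serine) at 0.17 and 0.16 in NGP and 0.43 and 0.62 in SK-N-BE(2)c, all called; for SARS1 the NGP calls were lost under 5 (ASO2) and 7 (ASO10) alternatives, and the YARS1 value with ASO2 in SK-N-BE(2)c was at 0.02 and not called at the same total. AARS1 (alanine) was at 0.17 and 0.24 in NGP and 0.23 and 0.68 in SK-N-BE(2)c, also all called. In IMR32 AARS1 had 1971, 1907, 1694 and 1882 with NCA, 1988, 1828, 1890.0 and 1675 with ASO1 and 1583, 1691, 1642 and 1460.4 with ASO2. It was low with ASO2 there, at -0.23 ± 0.06 (adjusted p 0.00685), and not with ASO1, at -0.01, a difference between the ASOs of 0.21 ± 0.06 (adjusted p 0.0156). WARS1 (tryptophan) went different ways in the 2 lines: it rose by 0.24 with ASO2 in NGP and fell by 0.24 with ASO2 in SK-N-BE(2)c, a difference of -0.48 (adjusted p 0.000614). With ASO10 WARS1 rose by 0.71 in SK-N-BE(2)c, from 1939 ± 61.4 (SD, n = 3) to 3165 ± 209, and was at 0.06, not called, in NGP. Opposite-strand overlaps also touch WARS1 (WDR25), YARS1 (S100PBP), AARS2 (TMEM151B), CARS2 (ING1), SARS2 (MRPS12) and YARS2 (DNM1L), whose values are uncertain to that extent.

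In IMR32 the calls not yet given were small. LARS1 fell by 0.15 and 0.16 with ASO1 and ASO2, with no overlap between ASO and NCA libraries. YARS1 fell by 0.22 with ASO1 and SARS1 by 0.17 with ASO2, each overlapping NCA. AARS2 rose by 0.16 with ASO1 and RARS2 by 0.22 with ASO2. The AARS2 call was lost under 9 alternatives and the SARS1 call under 8.

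Around the synthetases, 14 accessory genes of tRNA charging showed no single direction. With ASO2 2 rose and 3 fell in NGP and 4 rose and 4 fell in SK-N-BE(2)c, and with ASO10 3 rose and 3 fell and 3 rose and 7 fell, with medians between -0.20 and 0.04 (at the same total 3 rose and 6 fell for ASO2 in SK-N-BE(2)c, and the ASO2 median in NGP turned to -0.03). In IMR32 2 rose and 2 fell with ASO1 and 2 fell with ASO2; from the libraries numbered 2 to 4 it was 1 and 2 with ASO1 and 1 and 4 with ASO2. PSTK, the kinase of the selenocysteine pathway, rose with ASO10, in NGP from 57.5 ± 15.7 (SD, n = 3) to 107 ± 10.6, a log2 fold change of 0.91 ± 0.20 (adjusted p 0.000483). Its level in SK-N-BE(2)c went from 61.5 ± 9.53 to 106 ± 7.79, a log2 fold change of 0.79 ± 0.17 (adjusted p 0.000213). Of 7 genes for factors that carry charged tRNA to the ribosome 6 were tested, EEF1G being below the filter. With ASO2 6 rose in SK-N-BE(2)c and 4 in NGP, with none lower (at the same total 5 and 0, and 4 and 1). With ASO10 2 rose and 2 fell in NGP and 4 rose in SK-N-BE(2)c. IMR32 had 1 higher and 1 lower with ASO1 and 3 higher with ASO2, or 4 higher with ASO2 from the libraries numbered 2 to 4. Beside both lists, 54.4% to 67.0% of all genes were called against NCA in NGP and SK-N-BE(2)c and 28.0% to 32.4% in IMR32. EEF1D, an exchange factor for EEF1A, rose in every contrast, from 2342 ± 47.3 with NCA to 3965 ± 58.4 with ASO2 and 3546 ± 202 with ASO10 in NGP (0.76 and 0.60). Its rise was 0.93 and 0.74 in SK-N-BE(2)c and 0.17 and 0.35 in IMR32. EEF1A1, the factor itself, rose by 0.33 and 0.24 in NGP and 0.43 and 0.28 in SK-N-BE(2)c, and EEF1B2, another exchange factor, by 0.26 with ASO2 in NGP and 0.50 and 0.21 in SK-N-BE(2)c. EEF1A1 and EEF1B2 have near-identical processed copies in the genome, and how such reads were counted is not given in the sources used here.

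Set directly against each other, the ASOs differed in most synthetase genes of NGP and SK-N-BE(2)c. In NGP 26 of the 35 were called between ASO2 and ASO10 (11 higher with ASO2, 15 lower), where 58.6% of all genes were (30.6% higher and 28.0% lower). SK-N-BE(2)c had 28 (11 and 17), against 65.4% (34.6% and 30.8%). Among the cytosolic genes 5 were higher and 10 lower with ASO2 in NGP, and 5 and 12 in SK-N-BE(2)c. Among the mitochondrial genes it was 6 and 5 in each line. With libraries at the same total the NGP counts were 7 and 16 in all, 3 and 11 cytosolic and 4 and 5 mitochondrial, and the mitochondrial count in SK-N-BE(2)c 5 and 8. Over all genes that scaling gave 3794 higher and 4553 lower in NGP and 3677 and 5028 in SK-N-BE(2)c. Genes called higher with ASO2 in both lines included RARS2, LARS1, HARS2, GARS1 and NARS1, and those called lower included MARS1, EPRS1, EARS2, CARS1 and YARS1. In IMR32 6 were called between ASO1 and ASO2 (4 higher with ASO1, 2 lower), against 21.9% of all genes (9.17% and 12.8%). From the libraries numbered 2 to 4 it was 9 (3 and 6), where 2095 of 17393 genes were higher and 2921 lower.

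NGP and SK-N-BE(2)c share no library, so that their calls can be set side by side. With ASO2, 23 genes were called in the same direction in both (12 higher, 11 lower), which is 76.7% of the 30 called in NGP and 88.5% of the 26 in SK-N-BE(2)c, and WARS1 was called in opposite directions. With ASO10 it was 21 (14 higher, 7 lower), 87.5% of 24 and 80.8% of 26, and HARS2 went opposite ways. Over all genes tested in both lines, the calls shared in direction were 80.5% of the 7747 called in NGP and 72.0% of the 8665 in SK-N-BE(2)c with ASO2, and 70.9% of 7056 and 65.7% of 7617 with ASO10. All 14 cytosolic genes called with ASO10 in NGP were called in the same direction in SK-N-BE(2)c. The difference of the ASO2 effect between the lines was called for 5 of the 35 genes, 3 larger in SK-N-BE(2)c (KARS1, HARS2 and TARS2) and 2 smaller (CARS1 and WARS1), against 16.7% of 14537 genes (8.79% higher and 7.95% lower). Without NGP NCA replicate 3 that count was 8, and with libraries at the same total it was 10 (3 larger, 7 smaller). At the same total the difference was higher for 850 and lower for 1731 of 14558 genes.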

How the data were processed

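RNA-seq of 30 libraries of 3 cell lines in 9 groups was used. The deposited values are gene counts divided by 1 size factor per library (unit: signal), per the labels and the steps in the values, and in each library 100% of them came out as whole reads within 0.01. The submitters' processing notes name FastQC 0.11.8, cutadapt 1.18, STAR 2.6.0, HTSeq 0.6.1, DESeq2 1.42.0 and hg19/GRCh37. Per the labels' protocols a stranded total RNA kit or a stranded mRNA kit was used; which library had which is not given in the sources used here. The kit, read layout and depth can shift levels between tables, so tests were made within a table, except for the difference between NGP and SK-N-BE(2)c, whose tables hold the same genes.

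Genes with a mean of at least 10 normalized counts over the libraries of a table were tested: 17309 in IMR32, 14440 in NGP, 13556 in SK-N-BE(2)c and 14537 for both lines together. Entries without a gene ID, 174 in IMR32 (0.172% of values), were left out. Values were taken as log2(value + 1) and fitted with limma 3.58.1 in R 4.3.3, 1 model of 3 groups per line, with p-values adjusted by Benjamini-Hochberg over all genes tested. The steps were tested on simulated data. Alternatives were pseudocounts of 0.5 and 8, no filter, libraries rescaled to the same total, a replicate block, only the 2 groups compared, each replicate left out, edgeR 4.0.16 and DESeq2 on the recovered reads and, chosen after seeing the data, IMR32 libraries 2 to 4. On recovered reads edgeR called 2430 genes higher and 2467 lower with ASO1 and 2965 and 2665 with ASO2 in IMR32. It called 4318 and 4177 with ASO2 and 4070 and 3858 with ASO10 in NGP, and 4516 and 4564 and then 4074 and 3999 in SK-N-BE(2)c.

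The members and lists were chosen with earlier results of these data known. Genes given library by library were, in each line, up to 3 with the largest mean change among those called with 1 sign for both ASOs and up to 2 per side with the largest difference between ASOs, then those called with 1 sign in all 6 contrasts, and GARS1 and KARS1. From each pathway list up to 3 genes were named by size of change; others named were chosen after their values were seen. Gene spans, exon lengths and overlaps come from GENCODE 29, and promoter windows from RefSeq on GRCh38.p14, matched by symbol for 30 of 35 genes; no coordinate of the deposited files was used. One further marker of the adrenergic list is not reported here.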

Additional observations from a re-analysis of the deposited data

Results flagged for a closer look

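In IMR32, where groups had 4 libraries, 18 of 105 gene and group combinations had 1 library far from the other 3. Most of these were in the libraries numbered 1. Genes of a library are not independent, so this count is set against no chance rate. With NCA replicate 1 stood high for CARS1 (1807.5 normalized counts), HARS1 (1474.7), KARS1 (891.9), NARS1 (3258.6), QARS1 (1593.9), SARS1 (6465.3), TARS1 (3426.1) and WARS1 (1019.3), and low for AARS2 (894.3). With ASO1 replicate 1 stood high for EPRS1 (7277.8), GARS1 (5593.2), NARS1 (3446.8), SARS1 (5658.9) and WARS1 (948.2), and apart for IARS2 (1967.5). The other values were 781.8 for LARS2 in NCA replicate 4, 186.3 for MARS2 in NCA replicate 2 and 295.6 for YARS2 in ASO2 replicate 1.

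The ASO2 effect differed between SK-N-BE(2)c and NGP, in limma's test of that difference, for 5 synthetase genes, or 14.3% of those tested. The same test called 16.7% of all 14537 genes, so the synthetase genes were not called more often than genes in general. The difference in log2 fold change, SK-N-BE(2)c minus NGP, was 0.33 for KARS1 (adjusted p 0.00141), -0.46 for CARS1 (0.000826), 0.77 for HARS2 (2.29e-06), -0.48 for WARS1 (0.000614) and 0.40 for TARS2 (0.00221).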

How the results depend on the processing

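Of 210 log2 fold changes of single genes against NCA, 210 kept direction and call with either other pseudocount, 207 with edgeR, 206 with DESeq2, 202 with no filter and 192 at the same total, where LARS1 with ASO2 in SK-N-BE(2)c turned from 0.01 to -0.13. The count for the difference between NGP and SK-N-BE(2)c was 10 at the same total, in place of 5, where 850 of 14558 genes were higher and 1731 lower. The replicate numbers were not treated as pairs, since in IMR32 only 2 of 4 same-numbered pairs correlated over 0.1 (up to 0.33). Yet the same-numbered library was the most correlated for 3 of 4 ASO1 libraries against NCA, and for 2 of 4 in the other group pairs. With a replicate block IMR32 gave 22, 21 and, between its ASOs, 13 genes (6 higher with ASO1, 7 lower) in place of 15, 15 and 6. No single-gene call was lost. The block also raised the calls over all 17309 genes. They became 3253 higher and 3356 lower with ASO1, 4013 and 3406 with ASO2, and 2404 and 3273 between the ASOs. Leaving out 1 library gave, for ASO1 and ASO2 in IMR32, 13 to 17 and 12 to 14 genes, and 4 to 7 between them. In NGP it gave 26 to 29, 21 to 23 and 20 to 23 for ASO2, ASO10 and their difference, in SK-N-BE(2)c 26, 25 to 28 and 25 to 28, and for the difference between lines 5 to 8. The cytosolic minus mitochondrial median then lay at -0.226 to -0.133 and -0.258 to -0.161 in IMR32 (the last without ASO2 replicate 4), at -0.029 to 0.057 and 0.167 to 0.228 in NGP (the last without NCA replicate 2), and at 0.101 to 0.181 and 0.296 to 0.398 in SK-N-BE(2)c. The causes were not tested. Low counts limit what can be called for VARS2 and SARS2 in IMR32 and for FARS2 in all lines, and why they are low was not tested.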
